A study of Mus musculus with 8 samples.

Results

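The 7 genes Chat, Slc18a3, Slc5a7, Ache, Ngfr, Lhx8 and Gbx1 were chosen by name as genes used by cholinergic neurons of the basal forebrain, and all 7 were among the 14353 genes measured in ventral pallidum (VP) RNA. Levels were compared between ribosome-bound mRNA of vGluT2-expressing cells (TRAP, translating ribosome affinity purification) and RNA of the VP tissue (INPUT). The mice were homozygous for VGluT2-Cre and heterozygous for the tagged Rpl22 allele of the RiboTag strain, they received no treatment, and both fractions carry the same alleles. Cre driven from the Slc17a6 gene switches the hemagglutinin tag on in any cell that expresses vGluT2, or expressed it earlier, so TRAP reports ribosomes of every such cell in the dissected tissue. The labels describe TRAP as glutamatergic neurons and INPUT as all neurons and glia, whereas the methods speak of an unbound fraction when they turn to sequencing. The 8 libraries were 1 TRAP and 1 INPUT library from each of 4 pools of male and female mice. Pool VP1.6 held 7 mice of 9 to 12 weeks. Mice of the other pools were 10 to 16 weeks old, with 10 mice in VP2.2, 11 in VP2.6 and 10 in VP2.11. Replicates are therefore pools. Unless a block for the pool is stated, p-values rest on the spread of libraries within each fraction and ignore the pairing by pool. Across genes, both libraries of a pool tended to deviate from their fraction means in opposite directions. The spread within fractions therefore tends to understate how much the TRAP minus INPUT difference varies from pool to pool.

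Cholinergic neurons lie scattered through the VP and the neighbouring basal forebrain, where they form the main source of acetylcholine for the cortex and the amygdala. In such a neuron choline is taken up by the transporter Slc5a7 (CHT), joined to an acetyl group by Chat (choline acetyltransferase) and loaded into vesicles by Slc18a3 (VAChT), and acetylcholinesterase, encoded by Ache, breaks the transmitter down after release. Ngfr encodes the p75 neurotrophin receptor, a surface marker of these neurons, and Lhx8 and Gbx1 encode homeodomain transcription factors of the ventral forebrain that take part in the development of cholinergic neurons. Ache is also made by many neurons that do not release acetylcholine. The comparison asks how the mRNA of each step of this pathway is divided between the tagged ribosomes and the whole tissue.

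Chat and Slc18a3 share a locus, and their upstream sequences are shown because these neighbours differed in direction between the fractions. In GRCm38 with the GENCODE M21 annotation, Chat (ENSMUSG00000021919) lies on the minus strand at chr14:32408203-32465989. Slc18a3 (ENSMUSG00000100241) is a single exon of 2413 bases on the same strand at chr14:32462438-32464850. In the Chat transcript with the most exons, 16, Slc18a3 lies in the intron between exons 1 and 2, which spans 4893 bases, with 956 bases between it and exon 1 and 1524 bases between it and exon 2. The genes share 0 exon bases. Reads of unspliced Chat RNA across this intron would fall on Slc18a3, and the counts cannot tell them apart. The 4 stretches printed here come from the RefSeq promoter windows (GRCm38.p6, minus strand, 5′ to 3′) and end at the base before the annotated gene. They lie at chr14:32465990-32466159 for Chat, chr14:32464851-32465100 for Slc18a3, chr17:54299035-54299284 for Slc5a7 and chr3:154330660-154330810 for Lhx8. Capitals mark TAAT on either strand (ATTA when read on this strand), the core letters bound by many homeodomain proteins.
Chat: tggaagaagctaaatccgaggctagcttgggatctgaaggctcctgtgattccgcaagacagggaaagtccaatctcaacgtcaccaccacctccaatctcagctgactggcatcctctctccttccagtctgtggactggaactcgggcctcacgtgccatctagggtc
Slc18a3: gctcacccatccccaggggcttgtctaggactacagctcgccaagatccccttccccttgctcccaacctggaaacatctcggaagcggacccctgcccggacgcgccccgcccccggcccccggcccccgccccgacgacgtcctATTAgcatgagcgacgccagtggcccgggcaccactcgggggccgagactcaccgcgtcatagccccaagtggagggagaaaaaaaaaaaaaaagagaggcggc
Slc5a7: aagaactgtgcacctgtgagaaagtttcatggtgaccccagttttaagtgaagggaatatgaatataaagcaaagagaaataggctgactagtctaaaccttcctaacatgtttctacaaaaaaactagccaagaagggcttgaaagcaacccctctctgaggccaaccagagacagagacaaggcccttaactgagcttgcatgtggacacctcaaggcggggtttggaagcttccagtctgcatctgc
Lhx8: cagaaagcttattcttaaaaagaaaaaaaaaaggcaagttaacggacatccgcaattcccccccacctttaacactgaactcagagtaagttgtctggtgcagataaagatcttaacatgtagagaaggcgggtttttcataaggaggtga

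RefSeq windows of 300 bases were found for 6 of the 7 genes, all but Gbx1. TAAT occurred on either strand in 1 of these 6 windows, that of Slc18a3, against 58% of 32851 windows of the same length over all genes. The GC content of the windows was 55.67% for Chat, 67% for Slc18a3, 44.67% for Slc5a7, 74% for Ache, 71.67% for Ngfr and 47% for Lhx8, beside a median of 52.7% over all windows. The Ache window starts at chr5:137288004, inside the annotated gene, and so holds no bases upstream of that gene. A match or its lack describes the letters of these windows and nothing further. The other genes lie at chr17:54273590-54299034 (Slc5a7, ENSMUSG00000023945, minus strand), chr5:137287519-137294466 (Ache, ENSMUSG00000023328, plus strand), chr11:95568818-95587735 (Ngfr, ENSMUSG00000000120, minus strand), chr3:154306294-154330659 (Lhx8, ENSMUSG00000096225, minus strand) and chr5:24502757-24527202 (Gbx1, ENSMUSG00000067724, minus strand). Ache shares 98 of its exon bases (2.12%) with Gm42456 on the opposite strand. The sources used here do not state whether reads were counted by strand.

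The Cre driver gene was higher in TRAP. Slc17a6, which encodes vGluT2, stood at 130 to 162 CPM (read counts scaled to a common library size) in TRAP and 14.4 to 39.4 CPM in INPUT, and Slc32a1, the vesicular transporter of inhibitory neurons, at 7.22 to 15.5 CPM and 21.3 to 34.8 CPM. The other inhibitory markers, Gad1 and Gad2, which make GABA, were not called, with log2 differences of 0.30 and -0.05 (limma, adjusted p = 0.39 and 0.90). In VP2.2 their differences were 1.66 and 1.29, and in each of the other pools both were negative. The authors deposited log2 CPM per gene and library, and CPM values here are 2 to that power. Of 14249 genes tested with limma, 24.8% were called lower and 23.2% higher in TRAP at a Benjamini-Hochberg adjusted p under 0.05, and with the pool as a block the shares were 16.8% and 15.4%. The median log2 difference over all genes was -0.05. TRAP VP2.11 correlated least with the mean of its fraction across genes (r = 0.939, against 0.972 to 0.976 for the other TRAP libraries). Among INPUT libraries VP2.2 correlated least (r = 0.974, against 0.984 to 0.990 for the others). The effective depth, found from steps of whole reads, was about 12.9 M reads in the TRAP and 39.05 M in the INPUT library of VP2.2, and 12.75 M and 25.3 M in those of VP2.6. The depth of VP1.6 and VP2.11 is unknown. In VP2.2 and VP2.6 the deposited levels carry a shift per gene that both libraries of the pool share, so that differences within a pool match ratios of whole reads while levels do not. For the 11 values that could be traced to single read counts here, this shift ranged from -0.90 (Slc5a7 in VP2.2) to 0.20 (Gbx1 in VP2.6) on the log2 scale.

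The cholinergic genes did not move together between the fractions. Folds in this paragraph are 2 to the power of the mean log2 difference and differ from ratios of mean CPM. Slc18a3, Lhx8 and Gbx1 were lower in TRAP, with levels 3.37-fold, 4.25-fold and 3.05-fold higher in INPUT. Ache was higher in TRAP by 2.00-fold. Chat was higher by 1.62-fold in the fit with the fraction alone and did not pass with the pool as a block. Slc5a7 and Ngfr were not called. Slc18a3, Lhx8 and Gbx1 have shorter merged exons (2413 to 3475 bases) than Chat, Slc5a7 and Ache (4623 to 5644 bases). With a trend of the difference on exon length taken out, Slc18a3, Lhx8 and Gbx1 stood at -1.37, -1.73 and -1.39 on the log2 scale. All were still called (limma, adjusted p = 0.03, 0.011 and 0.0059, or 0.048, 0.011 and 0.026 with the pool as a block). Ache stood at 1.02 (limma, adjusted p = 0.0036). In bulk RNA, fewer cells of a type and less RNA per cell cannot be told apart. In all, 3 of the 7 genes were called lower, beside 24.8% of all genes, and 2 were called higher, beside 23.2%. With the pool as a block the counts were 3 lower (16.8% of all genes) and 1 higher (15.4%). The median log2 difference of the 7 genes was -0.20, and the single values ran from the 4.75th percentile of all genes (Lhx8) to the 89.5th (Ache).

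**Figure D1:**
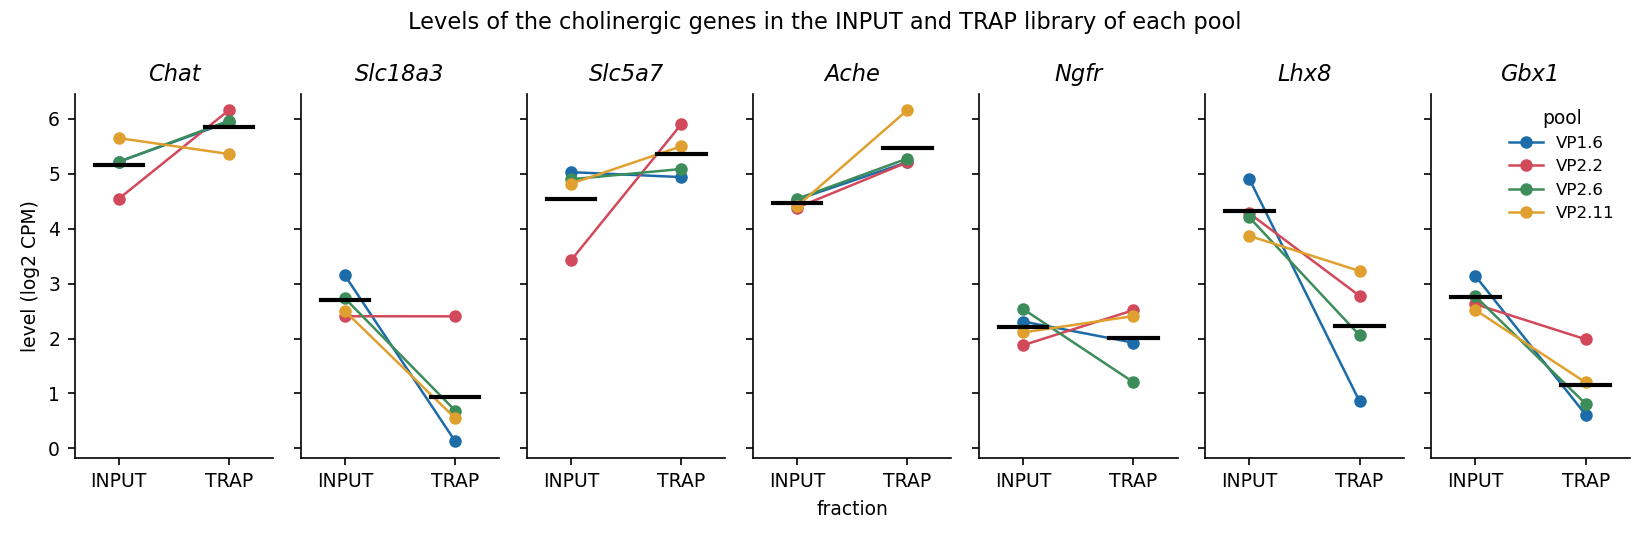
Level (log2 CPM, vertical axis) of each cholinergic gene in INPUT and TRAP, with a line joining the 2 libraries of a pool and a black bar at the mean of 4 libraries. Lines fall from INPUT to TRAP for Lhx8 and Gbx1 in all 4 pools and for Slc18a3 in all but VP2.2, where the line is flat, and rise for Ache in all 4, whereas those of Chat, Slc5a7 and Ngfr differ in direction between pools.

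Chat, the enzyme that makes acetylcholine, stood in TRAP at 61.6 CPM in VP1.6, 71.5 in VP2.2, 62.6 in VP2.6 and 41.1 in VP2.11, and in INPUT at 37.3, 23.3, 37.2 and 50.2 CPM in the same order of pools. TRAP was above INPUT in 3 of 4 pools, but VP2.11 went the other way and the fractions overlapped. The means were 59.2 ± 12.9 CPM in TRAP and 37.0 ± 10.97 CPM in INPUT (SD, n = 4). The log2 difference was 0.70 with a standard error of 0.24 and a 95% interval of 0.17 to 1.23 (limma, adjusted p = 0.034), and the interval was 0.11 to 1.29 with the pool as a block (limma, adjusted p = 0.066). An exact two-sided permutation test of the 4 libraries against 4 gave p = 0.057. Without pool VP2.2 the log2 difference was 0.39 (limma, adjusted p = 0.15), and without VP2.11 it was 1.03 (limma, adjusted p = 0.0063). Leaving out VP1.6 or VP2.6 kept the value, 0.69 and 0.68, and ended the call (limma, adjusted p = 0.12 and 0.13). Dropping any 1 library of VP1.6, VP2.2 or VP2.6 also ended it, with adjusted p of 0.058 to 0.085 by limma.

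Chat was read well in both fractions. In VP2.2 the traced reads were 1374 in TRAP and 1356 in INPUT, a ratio of 1.62 on the log2 scale after scaling for depth, with a counting interval of 1.51 to 1.73. In VP2.6 they were 1038 and 1226, and the interval was 0.63 to 0.87. These intervals are exact binomial ones at the 95% level and cover counting error only. They do not overlap, so the gap between these pools exceeded counting error.

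Slc18a3, the vesicular acetylcholine transporter, stood in TRAP at 1.09 CPM in VP1.6, 5.29 in VP2.2, 1.61 in VP2.6 and 1.46 in VP2.11, and in INPUT at 8.88, 5.30, 6.65 and 5.66 CPM in the same order of pools. TRAP was far below INPUT in 3 pools and practically level with it in VP2.2, so that the fractions were separated only by the last digit printed for that pool. The means were 2.37 ± 1.96 CPM and 6.62 ± 1.61 CPM (SD, n = 4). The log2 difference was -1.75 with a standard error of 0.45 and a 95% interval of -2.74 to -0.77 (limma, adjusted p = 0.0086). The exact two-sided permutation test gave p = 0.029, the smallest that 4 against 4 can give. By the deposited levels every TRAP library lay below every INPUT library, as for 24.4% of all genes tested. Both the separation and the permutation p rest on those levels, which carry a shift of -0.65 on the log2 scale for this gene in VP2.2. By traced reads TRAP VP2.2 stood at 8.29 CPM, beside 8.32 CPM in INPUT VP2.2 and 9.20 CPM in INPUT VP2.6. Reads of VP1.6 and VP2.11 could not be traced, so whether the fractions stay apart without the shift is unknown. Without VP1.6 the log2 difference was -1.33 (limma, adjusted p = 0.069), and without VP2.6 it was -1.66 (limma, adjusted p = 0.055).

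Reads for Slc18a3 were few in TRAP. VP2.2 held 107 in TRAP and 325 in INPUT, and the counting interval of the log2 ratio was -0.34 to 0.31. VP2.6 held 28 and 233, with an interval of -2.69 to -1.50. The pools therefore differed in Slc18a3 by more than counting error. The VP2.2 interval held values of either sign and did not reach the log2 differences of the other pools. Those were -3.02 in VP1.6, -2.04 in VP2.6 and -1.95 in VP2.11.

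Although Slc18a3 sits inside the Chat gene, its level relative to Chat was lower in TRAP in all 4 pools. The log2 difference of Slc18a3 minus Chat, taken within each library so that library scaling cancels, was -4.92 ± 0.88 in TRAP and -2.46 ± 0.49 in INPUT (SD, n = 4). TRAP minus INPUT of this quantity was -3.75 in VP1.6, -1.62 in VP2.2, -2.79 in VP2.6 and -1.66 in VP2.11, with a mean of -2.45 (exact two-sided permutation test, p = 0.029). Lhx8 minus Chat was lower in TRAP in the same way, with pool values of -4.78 to -0.35 and a mean of -2.79, as was Gbx1 minus Chat, with pool values of -3.25 to -1.03 and a mean of -2.31 (exact permutation test, p = 0.029 for each). Ngfr minus Chat differed by a mean of -0.90 (exact permutation p = 0.057). Slc5a7 minus Chat and Ache minus Chat differed by 0.11 and 0.30, with signs that varied between pools (exact permutation p = 0.714 for each). These are 6 comparisons, and the p-values are not adjusted. The SDs and p-values rest on deposited levels, in which the shift per gene and pool does not cancel. In VP2.6 this shift was -0.38 for Chat and 0.20 for Gbx1. The TRAP minus INPUT values of VP2.2 and VP2.6 are free of it, because both libraries of a pool share it.

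**Figure D2:**
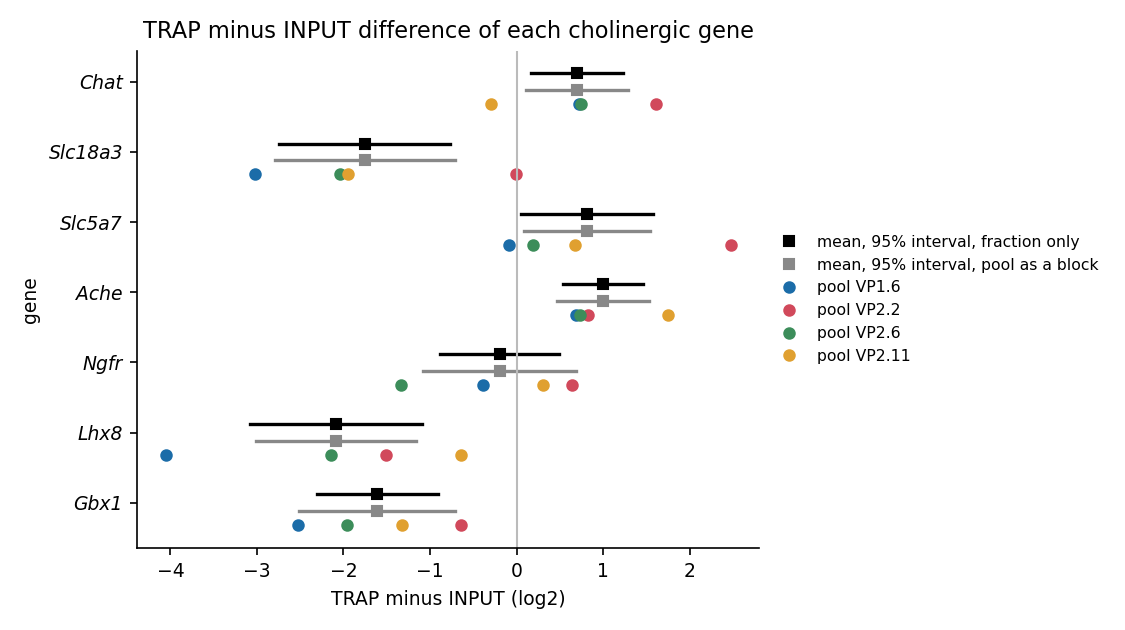
TRAP minus INPUT on the log2 scale (horizontal axis) for each cholinergic gene, with 1 coloured point per pool and squares with lines for the mean and its 95% interval without (black) and with (grey) the pool as a block. Both intervals lie below 0 for Slc18a3, Lhx8 and Gbx1, above 0 for Ache, Chat and Slc5a7, and on both sides of 0 for Ngfr. They are not adjusted for the number of genes. The pools of Chat, Slc5a7 and Ngfr fall on both sides of 0.

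Slc5a7, the high-affinity choline transporter, stood in TRAP at 30.7 CPM in VP1.6, 59.8 in VP2.2, 34.0 in VP2.6 and 45.3 in VP2.11, and in INPUT at 32.7, 10.7, 29.9 and 28.2 CPM in the same order of pools. The 2 fractions overlapped, and most of the difference came from VP2.2, whose INPUT library was the lowest of all 8. The log2 differences by pool were -0.09, 2.48, 0.19 and 0.68. Their mean was 0.81 with a standard error of 0.35 and a 95% interval of 0.05 to 1.58 (limma, adjusted p = 0.074), and an exact two-sided permutation test gave p = 0.057. Without VP2.2 the mean was 0.26 (limma, adjusted p = 0.24). Slc5a7 was called in 2 of 28 alternatives, with the library medians aligned (0.85, limma, adjusted p = 0.049) and without VP1.6 when the pool was a block (1.12, limma, adjusted p = 0.038). By reads, VP2.2 held 1439 in TRAP and 780 in INPUT (counting interval 2.35 to 2.61 on the log2 scale), and VP2.6 held 405 and 707 (0.01 to 0.36). The read count puts Slc5a7 at 20.0 CPM in INPUT VP2.2, above the 10.7 CPM of the deposited level, while the difference within the pool is the same.

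Ache, which encodes acetylcholinesterase, was higher in TRAP in all 4 pools. Its levels in TRAP were 37.1 CPM in VP1.6, 37.0 in VP2.2, 38.8 in VP2.6 and 71.5 in VP2.11, and those in INPUT 23.1, 20.9, 23.3 and 21.3 CPM in the same order of pools. Every TRAP library was above every INPUT library, as for 23.3% of all genes tested, and TRAP VP2.11 stood well above the other 3. The means were 46.1 ± 17.0 and 22.1 ± 1.26 CPM (SD, n = 4). The log2 difference was 1.00 with a standard error of 0.21 and a 95% interval of 0.53 to 1.46 (limma, adjusted p = 0.0033, and exact permutation p = 0.029). Without VP2.11 the difference was 0.75 (limma, adjusted p = 0.0027). Traced reads gave counting intervals of 0.69 to 0.96 in VP2.2 (670 and 1144 reads) and 0.56 to 0.90 in VP2.6 (533 and 637 reads), which overlap.

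Ngfr, the p75 receptor, stood in TRAP at 3.80 CPM in VP1.6, 5.72 in VP2.2, 2.31 in VP2.6 and 5.31 in VP2.11, and in INPUT at 4.96, 3.68, 5.80 and 4.32 CPM in the same order of pools. TRAP was lower in 2 pools and higher in 2. The means were 4.28 ± 1.56 and 4.69 ± 0.908 CPM (SD, n = 4). The log2 difference was -0.20 with a 95% interval of -0.88 to 0.49 (limma, adjusted p = 0.63), which leaves room for a change of either sign, and an exact two-sided permutation test gave p = 0.657. With a weight for each library estimated by limma the value was -0.64 and passed (adjusted p = 0.042), the only alternative of 28 in which Ngfr was called.

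Both transcription factors, Lhx8 and Gbx1, fell. Lhx8 stood in TRAP at 1.81 CPM in VP1.6, 6.86 in VP2.2, 4.17 in VP2.6 and 9.38 in VP2.11, and in INPUT at 30.1, 19.4, 18.5 and 14.6 CPM in the same order of pools. Every TRAP library was below every INPUT library, yet the gap varied widely, from -4.05 on the log2 scale in VP1.6 to -0.64 in VP2.11. The mean log2 difference was -2.09 with a standard error of 0.45 and a 95% interval of -3.07 to -1.10 (limma, adjusted p = 0.0036, and exact permutation p = 0.029), and it was -1.43 without VP1.6 (limma, adjusted p = 0.013). In VP2.6 the gene had 55 reads in TRAP and 488 in INPUT, with a counting interval of -2.59 to -1.76.

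Gbx1 stood in TRAP at 1.53 CPM in VP1.6, 3.96 in VP2.2, 1.76 in VP2.6 and 2.30 in VP2.11, and in INPUT at 8.82, 6.18, 6.82 and 5.74 CPM in the same order of pools. The fractions did not overlap, and the smallest gap was in VP2.2 (-0.64 on the log2 scale) rather than in VP2.11 as for Lhx8. The mean log2 difference was -1.61 with a standard error of 0.32 and a 95% interval of -2.31 to -0.91 (limma, adjusted p = 0.0023, and exact permutation p = 0.029). Without VP1.6 and with the pool as a block it was -1.31 and not called (limma, adjusted p = 0.068). Only 19 TRAP reads and 150 INPUT reads lay behind the value in VP2.6, where the counting interval was -2.76 to -1.30. Permuting signs within pools cannot give a p below 0.125 with 4 pools, so no such test could pass for any of these genes.

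Compared per length, the order of the genes differed between the fractions. Levels were divided by the merged exon length, which was 4703 bases for Chat, 2413 for Slc18a3, 5644 for Slc5a7, 4623 for Ache, 3446 for Ngfr, 2532 for Lhx8 and 3475 for Gbx1. In INPUT, Lhx8 and Chat led, at 2.98 ± 0.43 and 2.92 ± 0.46 log2 CPM per kb, followed by Ache (2.26 ± 0.08), Slc5a7 (2.05 ± 0.75), Slc18a3 (1.43 ± 0.33), Gbx1 (0.97 ± 0.27) and Ngfr (0.42 ± 0.28, all SD, n = 4). Only Chat and Ache, among neighbours in this order, were further apart than the sum of their SDs. With the length of the longest transcript in place of the merged exons, Chat (3.64) and Lhx8 (3.26) changed places. In TRAP, Chat (3.62 ± 0.35), Ache (3.26 ± 0.46) and Slc5a7 (2.86 ± 0.43) led, and Lhx8 (0.89 ± 1.04), Ngfr (0.23 ± 0.60), Slc18a3 (-0.33 ± 1.00) and Gbx1 (-0.64 ± 0.61) followed. Among neighbours, only Slc5a7 and Lhx8 were further apart than the sum of their SDs, and the order was the same by the longest transcript. These are deposited levels and include the shift per pool described above.

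**Figure D3:**
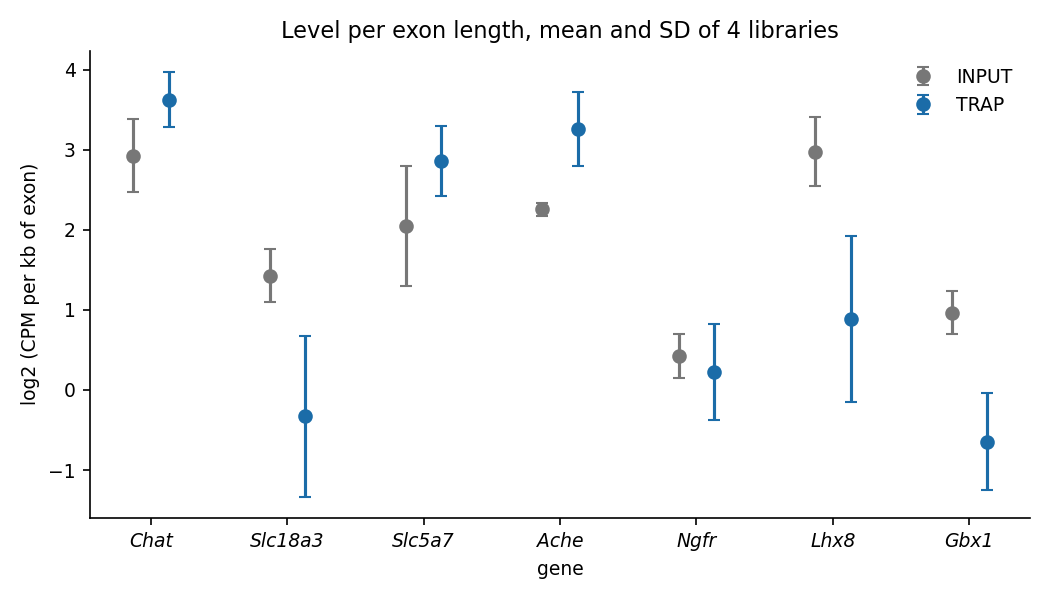
Level per exon length (log2 CPM per kb, vertical axis) of each cholinergic gene, with points for the mean and bars for the SD of 4 INPUT (grey) or 4 TRAP (blue) libraries. In TRAP, Chat, Ache and Slc5a7 form an upper group, while Lhx8, level with Chat in INPUT, drops to 0.89.

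Genes that supply or break down acetylcholine were called in both directions, as were all genes tested. Of 9 in this list, 8 were tested (Colq was not analysed here). Of these, 3 were called lower and 1 higher in TRAP, beside 24.8% and 23.2% of all genes. Their median log2 difference was -0.34, beside -0.05 for all genes. Slc10a4, a vesicle protein of cholinergic and monoaminergic neurons, stood at 2.75 to 5.86 CPM in TRAP and 11.9 to 18.8 CPM in INPUT (log2 difference -2.02, limma, adjusted p = 0.00028). Slc44a1, a choline transporter of many cell types, fell by 1.14 on the log2 scale (limma, adjusted p = 0.0022). Prima1, which anchors acetylcholinesterase in the membrane, was lower in all pools but VP2.11, where it was higher (-1.68, limma, adjusted p = 0.033), and leaving out any of the other 3 pools ended its call (adjusted p = 0.13 to 0.18 by limma). Prima1 was also not called with the exon length trend taken out (-0.90, limma, adjusted p = 0.23) or after quantile normalisation (-1.26, limma, adjusted p = 0.057). Acly, which makes cytosolic acetyl-CoA in all cells, was higher (1.43, limma, adjusted p = 0.00015). Bche, the second cholinesterase, stood at -0.21 (limma, adjusted p = 0.61). The difference was -0.48 for Slc44a2, 0.35 for Chka and 0.01 for Chkb, none of which was called.

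Among 7 other transcription factors of the cholinergic lineage, 3 were called lower and 0 higher (limma), beside 24.8% and 23.2% of all genes. Their median was -0.87. With the pool as a block 2 were called lower, beside 16.8% of all genes. At an unadjusted p under 0.05 the count higher was also 0. Without pool VP2.11 6 were called lower (3 with the pool as a block), and without its TRAP library 5. Isl1, which acts with Lhx8 in cholinergic specification, stood at 7.47 to 18.2 CPM in TRAP and 32.2 to 46.5 CPM in INPUT (log2 difference -1.75, limma, adjusted p = 0.00044). Lhx6, a relative of Lhx8 used by GABAergic neurons of the same origin, showed a similar size of change, -1.72 (limma, adjusted p = 0.0008). Nkx2-1, which lies upstream of both in development, was at -0.87 and lost its call with the pool as a block (limma, adjusted p = 0.043 without and 0.20 with the block) and without VP1.6, VP2.2 or VP2.6 (0.063 to 0.23). With the exon length trend taken out it was at -0.56 (limma, adjusted p = 0.18), and after quantile normalisation at -0.44 (limma, adjusted p = 0.24). Gbx2, Zic1, Zic2 and Zic4 were not called, with log2 differences of -0.87, -0.29, -0.38 and 0.18.

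Of the neurotrophin ligands and receptors in the list, 5 are reported here, and limma called all 5 higher, with or without the pool as a block. Over all genes, 23.2% were called higher without the block and 15.4% with it. Ntrk2 and Ntrk3, receptors for BDNF and NT-3 found in most neurons, rose by 0.94 and 0.86 on the log2 scale, and Sort1, a partner of p75, by 1.12. With a trend of the difference on exon length taken out, Ntrk2 and Ntrk3 stood at 0.37 and 0.24 and were not called (limma, adjusted p = 0.13 and 0.26). Bdnf and Ntf3, the ligands, rose by 2.57 and 2.58 (limma, adjusted p = 0.00011 and 0.0099). Bdnf stood at 6.86 to 19.2 CPM in INPUT, and its log2 differences by pool ran from 1.75 to 2.95. Ntf3 was measured less firmly. Its INPUT level was only 0.275 CPM in VP1.6 and 0.283 CPM in VP2.6, and above 1 CPM in the other pools. The log2 differences of Ntf3 by pool ran from 0.50 in VP2.2 to 4.25 in VP2.6. Without VP1.6 or VP2.6 the call of Ntf3 was lost (2.15 and 2.02, limma, adjusted p = 0.056 and 0.066).

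**Figure D4:**
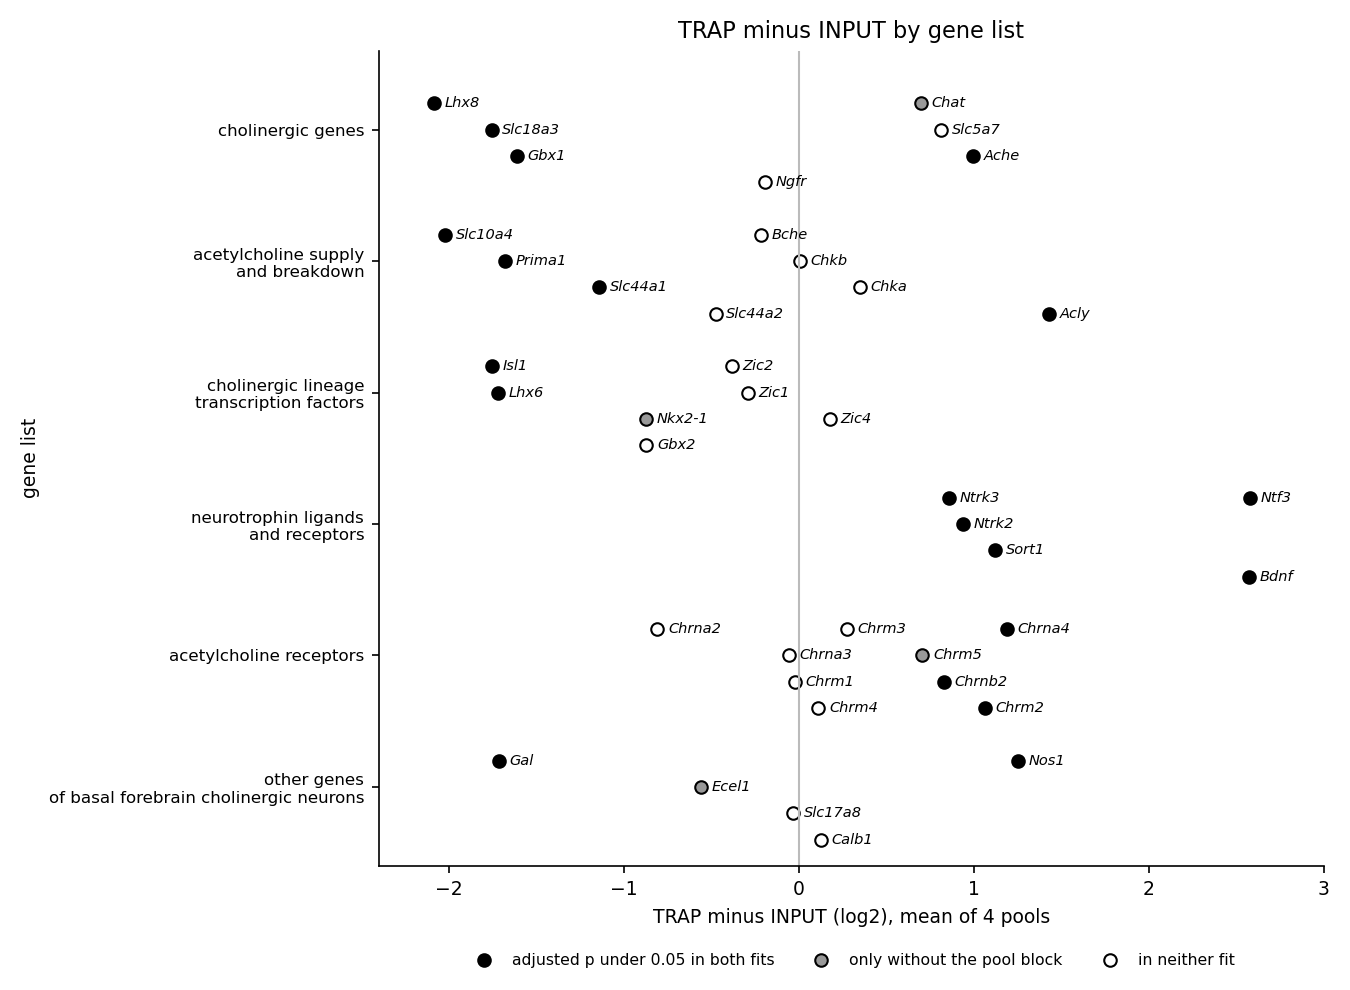
Mean TRAP minus INPUT (log2, horizontal axis) of each tested gene in the lists, 1 row of points per list, with black points called in both fits, grey points only without the pool block and white points in neither. The cholinergic genes, the supply genes and the other genes of these neurons spread to both sides of 0, the lineage factors lie mostly to the left, and the 5 neurotrophin genes lie to the right.

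Acetylcholine receptors, which read the transmitter rather than make it, held genes called higher in TRAP and none called lower. Of 14 genes, 9 were tested (Chrna5, Chrna6, Chrna7, Chrnb3 and Chrnb4 were not analysed here). Limma called 4 higher and 0 lower, beside 23.2% and 24.8% of all genes, and the median was 0.28. At an unadjusted p under 0.05 the count lower was 0. Chrm2, an inhibitory muscarinic receptor also used as an autoreceptor by cholinergic neurons, stood at 23.1 to 33.1 CPM in TRAP and 9.77 to 20.1 CPM in INPUT (log2 difference 1.06, limma, adjusted p = 0.0029). Chrna4 and Chrnb2, which together form the main nicotinic receptor of the brain, rose by 1.19 and 0.83, and Chrnb2 was at 0.56 and not called with the exon length trend taken out and the pool as a block (limma, adjusted p = 0.14). Chrm5 was at 0.71 and lost its call with the block (limma, adjusted p = 0.040 without and 0.24 with it) and without VP1.6, VP2.2 or VP2.6 (0.10 to 0.21). Of the 6 further genes linked to these neurons, 5 were tested (Tac3 was not analysed here). Of these, 2 were called lower and 1 higher, beside 24.8% and 23.2% of all genes, and the median was -0.03. Gal, the precursor of galanin, which rodent cholinergic neurons of this region contain, stood at 9.47 to 16.5 CPM in TRAP and 34.8 to 54.6 CPM in INPUT (-1.72, limma, adjusted p = 0.00022), and at -0.68 with no call when the exon length trend was taken out and the pool was a block (limma, adjusted p = 0.072). Nos1, neuronal nitric oxide synthase, was higher (1.25, limma, adjusted p = 0.00038). Ecel1 was at -0.56 and lost its call with the block (limma, adjusted p = 0.019 without and 0.11 with it) and without VP1.6 or VP2.6 (0.14 and 0.069). With the length trend taken out Ecel1 was at -0.34 (limma, adjusted p = 0.13). Slc17a8 (vGluT3), found in some cholinergic neurons, was at -0.03 and Calb1 at 0.12, neither of them called.

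Other cell types could carry some of the same genes, and their markers moved as well. By the methods, the dissected tissue may include adjoining striatum. The methods add that striatum lacks vGluT2 and so would not contaminate the precipitated RNA. Striatal tissue holds cholinergic interneurons that express Chat, Slc18a3 and Lhx8, and 6 of 7 markers of striatal projection neurons were called lower in TRAP, with a summed level of 412 to 656 CPM in TRAP and 1001 to 1532 CPM in INPUT. By pool, the median log2 difference of these 7 markers was -1.99 in VP1.6, -0.94 in VP2.2, -2.09 in VP2.6 and -1.13 in VP2.11. The median of the 5 astrocyte markers was -1.80, -0.33, -1.47 and -1.03 in the same order of pools. The medial habenula, which holds neurons that express Chat together with vGluT2, is not among the neighbouring areas that the methods name for the VP punches. Of 5 habenula markers 3 were tested (Pou4f1 and Chrnb4 were not analysed here), and limma called Nwd2 higher (2.38) and Tac2 lower (-2.12), while Gpr151 was at 1.17 (adjusted p = 0.068). The summed level of these 3 was 48.0 to 65.4 CPM in TRAP and 49.6 to 57.8 CPM in INPUT. Markers of astrocytes (4 of 5), oligodendrocytes (4 of 5) and microglia (5 of 5, or 3 with the pool as a block) were called lower in TRAP. Over all genes, 24.8% were called lower and 23.2% higher, or 16.8% and 15.4% with the pool as a block. The fifth oligodendrocyte marker, Mag, was called higher without the block only (0.61, limma, adjusted p = 0.035, or 0.072 with it). Of 4 endothelial and pericyte markers, Flt1 was called higher (2.37, limma, adjusted p = 0.0080) and 0 lower, also at an unadjusted p under 0.05. The part of any of these cell types in the levels of the cholinergic genes was not tested.

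Over the 8 libraries, the genes whose levels were most like the mean centred profile of Chat, Slc18a3 and Slc5a7 were Tnks (Pearson's r = 0.992), Nek9 (0.983), Kirrel3 (0.983), Rfx7 (0.982) and Zc3h12c (0.982). Slc18a3 (-1.75) differed between the fractions in the opposite direction from Chat (0.70) and Slc5a7 (0.81), so this difference largely cancels in their mean. The log2 differences of the 5 genes, -0.11 to -0.02, follow from how the profile was built. The 8 libraries share pools in pairs, so these values describe the profiles and carry no p.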

How the data were processed

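RNA-seq of TRAP and INPUT libraries of 4 VP pools was analysed from the authors' table of 14398 entries, of which 45 repeated a gene and were left out. The authors aligned reads to GRCm38 with STAR 2.5.1a (version from the submitters' processing notes), counted unique reads per gene, scaled libraries by TMM, and deposited log2 CPM values. The table also holds the authors' fold changes, their limits and p-values, and a transcript count, none of which was used. The 7 genes and all lists were chosen with earlier results of these data known, and the named genes are all genes of these lists plus the 5 of the likeness rule. A few genes of the neurotrophin list are not reported here, so counts over that list do not cover it whole.

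Of all genes, 14249 exceeded 1 CPM in 3 or more libraries and entered the test on the log2 values, made with limma 3.58.1 in R 4.3.3 (lmFit, eBayes with trend), with the fraction as the only term and Benjamini-Hochberg adjustment over all genes. The study's voom weights need counts, and the trend took their place. The pool pairs the libraries, since both come from 1 homogenate, and the blocked fit is given wherever it changes a call. Deviations from the fraction means of the libraries of a pool correlated at -0.495 to -0.745 across genes, which makes the fit without the block see less spread than the pool differences have. Single genes were also tested by exact permutation (scipy 1.17.1).

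Whole reads were sought in differences within pools. In VP2.2 2917 of 2917 low genes (100%), and in VP2.6 2826 of 2827 (99.96%), gave ratios of whole reads within 4e-08 on the log2 scale, with 0.5 added to each read count. Values of VP1.6 and VP2.11 are rounded too far for this. No count test was run, because reads came from 2 pools only. Exon lengths came from GENCODE M21 (GRCm38). Alternatives are in the closing section.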

Additional observations from a re-analysis of the deposited data

Results flagged for a closer look

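Single libraries that stood far from the other 3 of their fraction were looked for in 86 sets of 4 libraries with Dixon's test. The sets were the cholinergic genes, the related gene lists, Slc17a6 and Slc32a1, each gene in each fraction. Other cell type markers and the genes of the likeness rule were not examined. Chance alone flags about 1 in 20 sets, or 4.3 here, and 7 were found. Levels in this paragraph are log2 CPM unless given in CPM. Among the cholinergic genes, 2 of 14 sets were found. Slc5a7 in INPUT VP2.2 was low at 3.423 (others 4.820 to 5.030), though its traced reads put it at 20.0 CPM there, as against 10.7 CPM for the deposited level, which carries a shift of -0.90. Ache in TRAP VP2.11 was high at 6.160 (others 5.209 to 5.277). The log2 difference of Slc5a7 without pool VP2.2 was 0.26 in place of 0.81, and that of Ache without VP2.11 was 0.75 in place of 1.00. INPUT VP2.2 also held a high Slc44a2 (3.528, others 2.800 to 2.920) and a low Acly (6.969, others 7.559 to 7.630). TRAP VP2.11 also held a high Zic2 (2.140, others 0.833 to 0.927). Bdnf was low in TRAP VP2.2 (5.725, others 6.004 to 6.047), and Ecel1 was high in INPUT VP1.6 (4.770, others 4.353 to 4.424).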

How the results depend on the processing

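The 7 genes were refitted under up to 28 alternatives. Lhx8 was called in 28 of 28 (-2.57 to -1.43), Ache in 27 of 28 (0.75 to 1.10), Gbx1 in 26 of 27 (-1.94 to -1.26), Slc18a3 in 24 of 27 (-2.34 to -1.31) and Chat in 12 of 28 (0.39 to 1.03), each with the same sign throughout. Slc18a3 and Gbx1 were not tested when a mean log2 CPM of at least 2 was required, which left 1 gene called lower. The number called higher, 2 as reported, was 1 with the replicate block, 1 without the trend, 1 with the exon length trend taken out and the block, and 0 with a log2 difference of at least 1 required. Leaving out pools or libraries gave 1 to 3 lower and 1 to 2 higher. Over all genes, 6830 were called as reported, 4592 with the pool as a replicate block, 3528 with a log2 difference of at least 1, 3785 with the length trend taken out and the block, and 3232 to 7167 on leaving out pools or libraries (with the block 4156 without VP2.2, 3250 without VP2.6 and 4102 without VP2.11). The block ended the calls of Chat, Nkx2-1, Chrm5 and Ecel1 and, among cell type markers, of Mag, Csf1r and C1qa, and changed no other call of a gene in the lists. The cause of these shifts was not tested.

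Among uncalled genes the sign turned in some settings. Ngfr was 0.067 after quantile normalisation, 0.034 with the length trend taken out, with or without the block, 0.184 without VP2.6 in both fits and 0.075 without its TRAP library. Bche was 0.176 after quantile normalisation and 0.001 without VP1.6. Slc17a8 was 0.002 with medians aligned, 0.246 after quantile normalisation, 0.148 without VP1.6 (0.072 without its TRAP, 0.044 without its INPUT library) and 0.453 without VP2.6 (0.320 and 0.101). None of these passed. With 28 TRAP reads for Slc18a3 and 19 for Gbx1 in VP2.6, depth limits both genes, and the order of levels per length between Chat and Lhx8 in INPUT depended on the length used.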
